A study of Mus musculus with 30 samples.

Results

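Sox1, Sox2, Sox3 and Sox21 belong to the SoxB group, and Sox4, Sox11 and Sox12 form the SoxC group, of a family of transcription factors that share one type of DNA-binding domain, the high mobility group box. The 7 genes were chosen by name, without Sox14, a further SoxB gene that had values only at E18 among the captured ages (a mean of 1.74 units) and is counted below with the other Sox genes. They are 7 out of 14997 genes with a unique symbol in the table of captured cells and 26005 genes in the table of cultured spheres. All 7 were found in both tables, although all 7 had values only at E18, and 6 had values at each other age.

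In the developing nervous system Sox1, Sox2 and Sox3 are known for holding cells in the progenitor state, and Sox2 remains on in glia and in adult stem cells. Sox21 is closely related to them but is known mainly as a repressor that works against them. Sox4, Sox11 and Sox12 act later, in newly born and immature neurons, where Sox4 and Sox11 are known to switch on neuronal genes such as Tubb3, a neuronal tubulin.

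RNA was sequenced from 30 mouse libraries to follow dopamine progenitors of the midbrain floor plate from neurogenesis to ependymal maturation. Of these, 20 came from floor plate cells labelled in Lmx1aCreERT2; R26TRAPC mice and cut out by laser capture: 4 at E11, 5 at E13 and 5 at E18 of embryonic life, and 6 at P70, the adult age. All captured groups carry both alleles, so Cre activity under Lmx1a, a floor plate gene, limits which cells are marked. The other 10 were adult cells grown as spheres in vitro, 5 labelled MB and 5 labelled FB. The labels do not spell out MB and FB, and the series' own text names ependymal spheres from the midbrain aqueduct and neurospheres from the lateral ventricle. Whether replicate libraries trace back to different animals or cultures is not stated in the labels, so the p-values below measure the spread between libraries, which may be technical.

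The captured libraries held 1378294 to 4872982 reads that could be recovered from the deposited values, with the P70 libraries lowest at 1378294 to 3086916, and the sphere libraries held 6327198 to 9291311 counts. Correlations of a captured library with the rest of its group ran from 0.91 to 0.987, lowest in P70 replicate 6, and P70 replicate 4 alone held the pituitary hormone genes Gh and Prl, at 7232 and 6004 units against at most 1.33 and 0.539 in the other P70 libraries. Floor plate markers were present at each age: the 16 markers summed to 830 to 1036 units at E11 and 163 to 243 at P70, where Shh and Corin had no values, while 16 ependymal markers summed to 29.0 to 64.4 units at E11 and 14861 to 22292 at P70. Other cells were also present in the captured material, since 5 erythroid genes summed to 15150 to 39849 units at E11 and 1.62 to 6.85 at E18, and 10 fibroblast and meninges markers to 301 to 834 units at E11 and 52.6 to 153 at E13. Much of the latter sum was Vtn, with a mean of 377 units at E11 and 41.6 at E13, beside 45.2 and 5.93 for Col3a1. Markers of glia and microglia went the other way: 12 astrocyte markers summed to 118 to 133 units at E11 and 1927 to 2443 at P70, 10 oligodendrocyte lineage markers to 7.26 to 30.1 and 383 to 990, and 10 microglia markers to 33.5 to 62.4 and 280 to 468. At E18 these sums were 2349 to 3761 units (astrocyte), 150 to 207 (oligodendrocyte lineage) and 73.2 to 292 (microglia). The median astrocyte sum was thus higher at E18 (3306 units) than at P70 (2263 units). The part of these cell types in the results on the Sox genes was not tested.

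In the GRCm38 annotation each of the 7 is a gene without introns, apart from a second transcript of Sox12 with 2 exons. Sox2 lies on chromosome 3 at 34650405 to 34652461 and Sox11 on chromosome 12 at 27334264 to 27342574. Sox12 lies on chromosome 2 at 152393611 to 152398063, Sox4 on chromosome 13 at 28948919 to 28953713, and Sox21 on chromosome 14 at 118233232 to 118237030. Sox1 lies on chromosome 8 at 12395295 to 12400126 and Sox3 on chromosome X at 60891366 to 60893430. The libraries keep no strand, and Sox2 sits inside Sox2ot, a long noncoding transcript of the same strand that has its own values in the captured table, so reads from the shared stretch cannot be told apart. Long noncoding genes also overlap Sox1 (Sox1ot, same strand), Sox21 (Gm4675, opposite strand) and Sox4 (Gm26735, opposite strand).

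Sequence before the start of transcription is shown for 3 members because their levels moved apart with age: Sox11 and Sox12, the 2 SoxC genes with the largest falls to P70, and Sox2, the SoxB gene with the highest level. The stretches are the RefSeq promoters (GRCm38.p6), which were found for 6 of the 7 genes (not Sox3), without bases inside the annotated gene. They lie at chr12:27342719-27342968 (minus strand), chr2:152398064-152398296 (minus strand) and chr3:34649745-34649994 (plus strand). Capitals mark the E-box letters CANNTG, bound by proneural factors, and the CCAAT box, read as CCAAT or, on the other strand, ATTGG.
Sox11: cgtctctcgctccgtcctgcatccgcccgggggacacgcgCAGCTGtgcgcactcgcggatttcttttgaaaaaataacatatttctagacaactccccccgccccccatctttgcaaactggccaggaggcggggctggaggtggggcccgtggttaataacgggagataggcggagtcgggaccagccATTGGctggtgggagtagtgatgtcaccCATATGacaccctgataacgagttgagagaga
Sox12: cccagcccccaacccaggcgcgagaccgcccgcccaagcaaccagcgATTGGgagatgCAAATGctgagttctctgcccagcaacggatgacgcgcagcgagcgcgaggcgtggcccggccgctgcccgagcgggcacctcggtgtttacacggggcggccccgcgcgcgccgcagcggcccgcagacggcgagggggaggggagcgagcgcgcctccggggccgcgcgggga
Sox2: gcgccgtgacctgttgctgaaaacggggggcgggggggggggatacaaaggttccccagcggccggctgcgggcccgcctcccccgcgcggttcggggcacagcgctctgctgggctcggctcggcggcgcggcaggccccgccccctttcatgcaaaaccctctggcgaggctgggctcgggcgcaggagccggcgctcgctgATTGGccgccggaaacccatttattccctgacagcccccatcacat
The full 250 bases lie before the RefSeq start, which can differ from the annotated gene start. The Sox1 stretch (chr8:12395269-12395518) lies mostly inside the annotated gene, and those of Sox4 and Sox12 reach a few bases into it. The Sox2 stretch ends some way before its gene. In the full 250 bases, E-box letters stood in 3 of the 6 promoters, namely those of Sox4, Sox11 and Sox12, against 66.2% of all 32851 promoters. The CCAAT box stood in 5 of 6 (not Sox21), against 33.8% of all. Neither ACAATG, a Sox binding core, nor TATAAA, the TATA box, was found on either strand in any of the 6, against 10.7% and 12.4% of all promoters. GC content ran from 50.8% in Sox4 to 74.4% in Sox12, beside a median of 52.4% over all promoters. No motif letters overlapped each other, and a match describes letters only.

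Sox11 had the highest mean of the 7 at E11 and E13 and fell at each step after E13, while Sox2 had the highest mean at E18 and in the adult. Captured values are normalized units that behave as reads per gene length and library depth (RPKM), and "units" below means these deposited values.

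**Figure D1:**
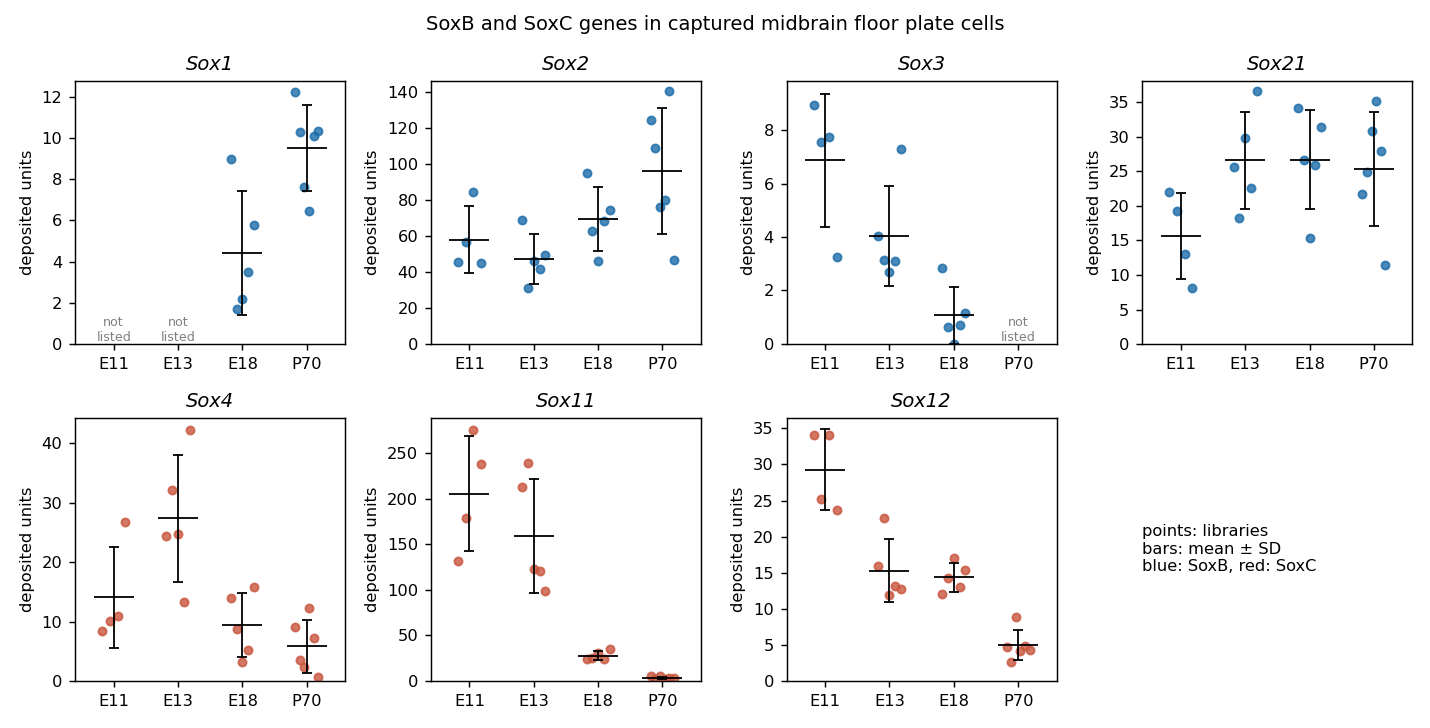
Deposited units of each SoxB (blue) and SoxC (red) gene in every captured library by age, with the mean and SD as black bars and an axis of its own for each gene. Sox11 dropped from a mean of 206 units at E11 to 3.45 at P70 with no overlap, whereas the Sox2 libraries of different ages overlapped.

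Among the SoxC genes, Sox11 was at 131, 179, 275 and 237 units in the 4 E11 libraries, and at 213, 239, 123, 121 and 98.8 units in the 5 E13 libraries. At E18 it was at 24.5, 25.2, 31.0, 23.7 and 34.6 units, and at P70 at 2.505 to 5.33 units with a median of 2.73. The E11 and E13 libraries overlapped, every E18 library lay below every E13 library, and every P70 library lay below every E18 library. The means were 206 ± 63.5 (SD, n = 4), 159 ± 62.5 (n = 5), 27.8 ± 4.79 (n = 5) and 3.45 ± 1.30 (n = 6). In reads, 5153 to 12219 per library stood behind the E11 values and 34 to 126 behind the P70 values.

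Changes in captured cells were tested with limma on log2(value + 1) over all genes with values at both ages, with Benjamini-Hochberg adjustment and a threshold of 0.05; differences on this scale understate the change of low genes. Sox11 did not pass the test between E11 and E13 (log2 difference -0.40, SE 0.27, adjusted p = 0.323). It fell by 2.401 (SE 0.25, adjusted p = 1.03e-07) from E13 to E18 and by 2.73 (SE 0.24, adjusted p = 2.23e-08) from E18 to P70. From E11 to P70 the fall was 5.53 (SE 0.26, adjusted p = 7.11e-14). These samples are bulk, so fewer cells of a type and less RNA per cell cannot be told apart.

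Sox12 fell from E11 to E13 and from E18 to P70. It was at 34.2, 25.2, 34.0 and 23.7 units at E11 and at 15.9, 22.6, 11.9, 13.2 and 12.7 units at E13. At E18 it was at 12.04, 14.3, 17.0, 13.01 and 15.4 units, and at P70 at 2.63 to 8.88 units with a median of 4.54. All E11 libraries stood above all E13 libraries, the E13 and E18 libraries overlapped, and all P70 libraries stood below all E18 libraries. By limma, Sox12 fell by 0.91 (SE 0.24, adjusted p = 0.00884) from E11 to E13 and fell by 1.42 (SE 0.22, adjusted p = 2.45e-05) from E18 to P70. Between E13 and E18 the log2 difference was -0.06 (SE 0.23, limma adjusted p = 0.861).

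Sox4 had its highest mean at E13, but its libraries were spread widely. It was at 8.45, 10.04, 11.0 and 26.8 units at E11, with replicate 4 apart from the others, and at 24.4, 32.2, 24.7, 13.3 and 42.2 units at E13. It was at 13.9, 8.79, 3.26, 5.12 and 15.8 units at E18, and at 0.610 to 12.2 units with a median of 5.34 at P70. The highest P70 library was replicate 4, the one that held the pituitary hormone genes. Every neighbouring pair of ages overlapped. By limma, Sox4 fell by 1.54 (SE 0.49, adjusted p = 0.0128) from E13 to E18, while the log2 differences of 0.96 (SE 0.52, adjusted p = 0.207) from E11 to E13 and -0.75 (SE 0.47, adjusted p = 0.212) from E18 to P70 did not pass. Without P70 replicate 4 the last was -1.01 (limma adjusted p = 0.0916). Of 16 alternatives for the step from E11 to E13, a weight per library (1.09, limma adjusted p = 0.0126) and edgeR on recovered reads, chosen after seeing the data (1.02, adjusted p = 0.0405), passed. The fall of 1.33 from E11 to P70 (SE 0.50, limma adjusted p = 0.0245) rested on single libraries: adjusted p was 0.114 without E11 replicate 4, 0.0517 without P70 replicate 3 and 0.0608 without P70 replicate 6.

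Among the SoxB genes, Sox2, the core progenitor factor, was at 45.9, 56.8, 84.7 and 45.3 units at E11 and at 69.1, 31.2, 46.2, 41.6 and 49.7 units at E13. It was at 95.1, 63.0, 46.1, 68.4 and 74.6 units at E18, and at 46.6 to 141 units with a median of 94.5 at P70. All ages overlapped, and P70 replicate 6 was the lowest P70 library. No step between neighbouring ages passed limma's test, with log2 differences of -0.28 (SE 0.29, adjusted p = 0.536), 0.54 (SE 0.27, adjusted p = 0.102) and 0.41 (SE 0.26, adjusted p = 0.210). Without P70 replicate 6 the last was 0.60 (adjusted p = 0.0437). The step from E13 to E18 passed in 4 of 17 alternatives: without E13 replicate 1 (limma adjusted p = 0.0469), without E18 replicate 3 (0.0499), with a weight per library (0.0192) and by edgeR on recovered reads (0.0323).

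From E11 to P70, Sox2 rose by 0.67 on the log2 scale (SE 0.27, limma adjusted p = 0.0362), which was lost when any of 6 libraries was left out (E11 replicates 1, 2 and 4 and P70 replicates 1, 2 and 5), with adjusted p from 0.0630 to 0.109 over these. Sox2ot, which overlaps it, was at 6.77 ± 1.69 units in the E11 libraries (SD, n = 4) and 15.9 ± 4.48 in those of E13 (n = 5). Its later means were 14.9 ± 2.46 (E18, n = 5) and 23.1 ± 5.71 units (P70, n = 6). By limma, Sox2ot rose by 1.102 (SE 0.22, adjusted p = 0.00123) from E11 to E13, by 0.58 (SE 0.20, adjusted p = 0.0268) from E18 to P70, and by 1.62 (SE 0.22, adjusted p = 9.66e-07) from E11 to P70. How many Sox2 reads come from Sox2ot was not tested.

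Sox21 was at 22.04, 19.3, 12.98 and 8.14 units at E11 and at 25.6, 18.3, 29.7, 22.5 and 36.6 units at E13. It was at 34.2, 26.6, 15.3, 25.9 and 31.3 units at E18, and at 11.4 to 35.1 units with a median of 26.4 at P70, where replicate 4 was highest. The ages overlapped throughout, and from E13 on the means stayed between 25.3 and 26.7 units. The log2 differences were 0.78 (SE 0.31, limma adjusted p = 0.0770) from E11 to E13, -0.00 (SE 0.29, adjusted p = 0.993) from E13 to E18 and -0.10 (SE 0.28, adjusted p = 0.799) from E18 to P70. The step from E11 to E13 passed in 4 of 16 alternatives, with the lowest adjusted p, 0.0108, from limma with a weight per library. From E11 to P70 the log2 difference was 0.67 (SE 0.30, limma adjusted p = 0.05005), just above the threshold, and it passed in 8 of 17 alternatives. Among these were libraries rescaled by median ratio (0.93, limma adjusted p = 0.00731) and edgeR on recovered reads (0.95, adjusted p = 0.0173). It also depended on single libraries. Without P70 replicate 6 it was 0.88 (limma adjusted p = 0.00636), without E11 replicate 1 it was 0.86 (adjusted p = 0.0232) and without E11 replicate 2 it was 0.80 (adjusted p = 0.0386). Without E11 replicate 4 it was 0.42 (limma adjusted p = 0.241).

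Sox3 and Sox1, the other progenitor factors of the SoxB group, had values at opposite ends of the series. Sox3 was at 8.96, 7.56, 7.74 and 3.25 units at E11 and at 4.04, 3.12, 2.69, 3.09 and 7.28 units at E13. At E18 it was at 2.84, 0.618, 0, 0.687 and 1.15 units, and it had no values at P70. The E11 and E13 libraries overlapped, as did those of E13 and E18. By limma, Sox3 fell by 1.37 (SE 0.35, adjusted p = 0.00401) from E13 to E18, where only 0 to 11 reads per library stood behind the values.

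Sox1 had no values at E11 or E13. It was at 8.99, 1.69, 2.19, 3.51 and 5.76 units at E18 and at 6.48 to 12.2 units with a median of 10.2 at P70. The 2 ages overlapped, with E18 replicate 1 inside the adult range. Sox1 rose by 1.098 (SE 0.32, limma adjusted p = 0.0120) from E18 to P70. The table gives a gene values at an age only where that age's mean is at least 1 unit, so Sox1 before E18 and Sox3 at P70 were under that limit, and no fold can be given.

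**Figure D2:**
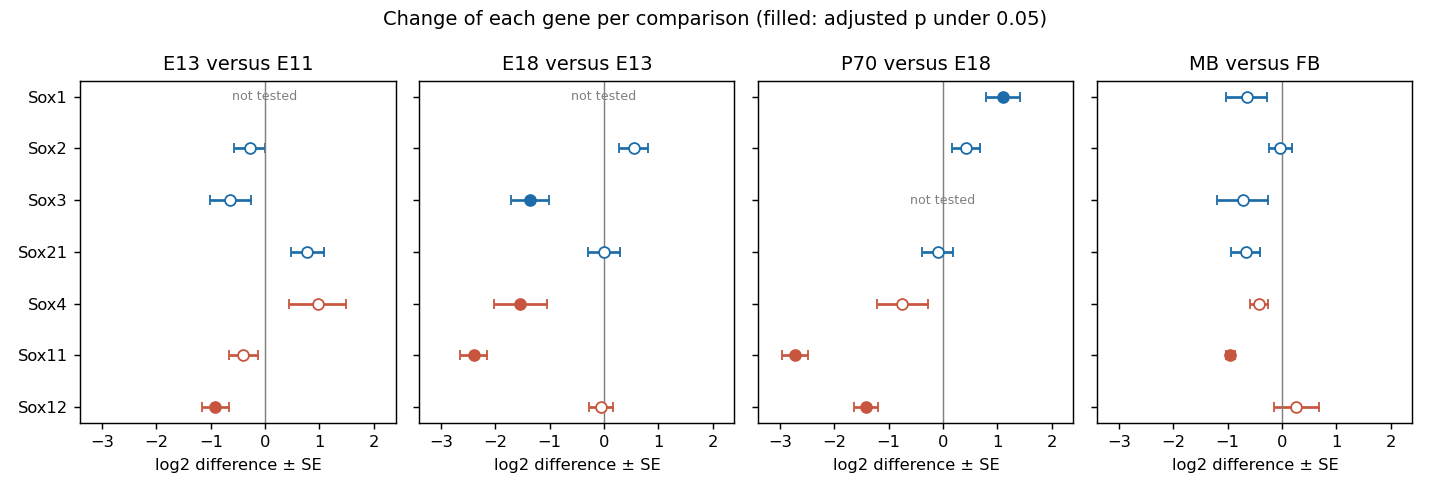
Log2 difference and its SE (x axis) of each gene (y axis) between neighbouring ages of captured cells by limma and between MB and FB spheres by edgeR, with filled points where the adjusted p was under 0.05. Sox11 has the largest difference from E18 to P70, at -2.73, and Sox1 is the only filled point to the right of 0.

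From E11 to E13, 1 of the 6 members tested passed, Sox12, which was lower, where 20.9% of all genes passed in either direction, 9.44% were higher and 11.5% were lower. From E13 to E18, 3 of 6 passed, all lower, beside 47.4% of all genes in either direction and 25% lower. From E18 to P70, 2 of 6 were lower and 1 higher, beside 40.8% of all genes in either direction, 24% lower and 16.9% higher. From E11 to P70, 3 of 5 were lower and 1 higher, beside 64.9% in either direction, 40.3% lower and 24.6% higher. Counts over so few genes are no result about the group as a whole. The median log2 difference of the members was -0.34, -0.71, -0.43 and -1.33 in the 4 comparisons, beside -0.04, -0.04, -0.14 and -0.30 over all genes tested. Without P70 replicate 6, 2 members were higher and 2 lower in each of the comparisons with P70. Without P70 replicate 4 the counts of members in these comparisons were the same as with all libraries.

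The order of the ages differed from gene to gene. Exact permutation tests were added for 3 pairs of ages that were neighbours in a gene's order of means and that no contrast covered. The p-values were adjusted over these 3. Pairs chosen in this way have close means, so that they would not pass was likely beforehand. Other uncovered pairs, such as Sox2 at P70 and E13, were not tested. Sox2 at E18 and E11 (p = 0.349, adjusted p = 0.524, exact permutation test, two-sided), Sox4 at E18 and E11 (p = 0.302, adjusted p = 0.524, exact permutation test) and Sox21 at P70 and E13 (p = 0.753, adjusted p = 0.753, exact permutation test) did not differ beyond their spread.

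The level of Sox11 went from above to below that of Sox2 between E13 and E18, which is given as a description with no test. The log2 ratio of Sox11 to Sox2 was 1.81 ± 0.39 (SD, n = 4) in E11 libraries and 1.70 ± 0.73 (n = 5) in E13 libraries. It was -1.30 ± 0.51 (n = 5) in E18 and -4.79 ± 0.70 (n = 6) in P70 libraries. It was above 0 in every E11 and E13 library and below 0 in every E18 and P70 library. The 3 SoxC genes made up 75.0% ± 6.19 (E11), 70.9% ± 8.52 (E13), 34.4% ± 7.03 (E18) and 9.98% ± 2.91 (P70) of the summed units of members with values. The sum of the SoxB members with values went from 80.7 ± 20.1 units at E11 to 131 ± 38.8 at P70, and the SoxC sum from 248.9 ± 66.9 to 14.2 ± 4.996 units. Sox1 at E11 and E13 and Sox3 at P70 had no values and are not in these sums and shares. Levels of different genes depend on the gene lengths behind the deposited values, which differ from the annotation: relative to Sox2 the length behind Sox3 was 0.42, against 1 in GENCODE, and that behind Sox11 3.44, against 4.04. Where a ratio crosses 0 depends on these lengths, and its change with age does not.

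**Figure D3:**
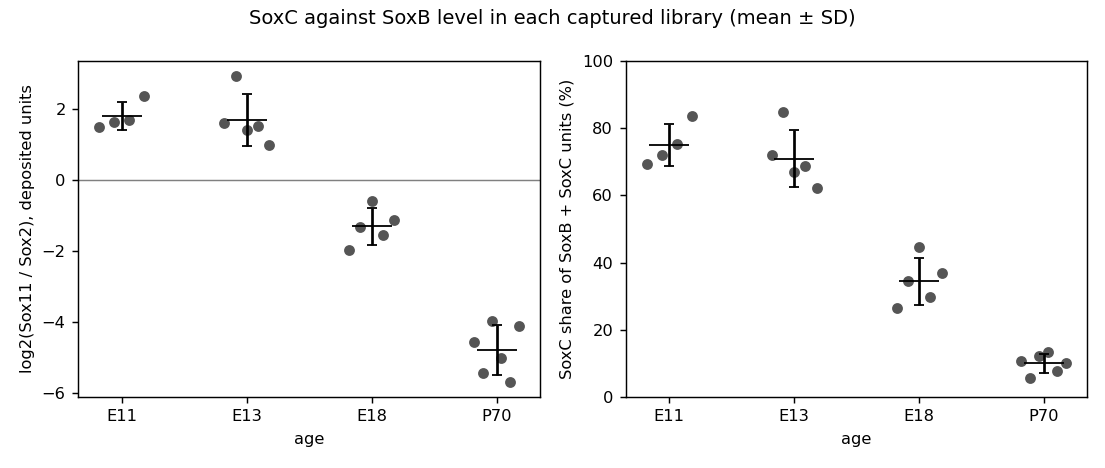
Left, log2 ratio of Sox11 to Sox2 units in each captured library by age. Right, share of SoxC genes in the summed units of members with values (%) in the same libraries. Both show the mean and SD. All E11 and E13 libraries lie above a ratio of 0 on the log2 scale and all later ones below it, and the share falls from 75.0% to 9.98%.

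For the 5 members with values at all 4 ages (not Sox1 and Sox3), the genes whose pattern was most like theirs were found over 8436 genes by Pearson's r of log2(value + 1) across the 20 captured libraries, which share ages and depth, so r is given as a description. For Sox11 these were Mex3a, an RNA-binding protein gene (r = 0.979), Ptbp2, a neuronal splicing regulator (0.978), and Ube2r2, a ubiquitin-conjugating enzyme (0.970). Ptbp2 went from a mean of 113 units at E11 to 8.49 at P70. For Sox12 they were Aars, an alanyl-tRNA synthetase (0.967), Ppp2r5c, a phosphatase subunit (0.963), and Acat2, an acetyl-CoA acetyltransferase (0.959). For Sox4 they were Zfp266 (0.885), Hook3 (0.876) and Arl5b (0.856), and Zfp266 was, like Sox4, highest at E13, at a mean of 39.8 units.

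For Sox2 the most alike were Pkd2, a cation channel of primary cilia (0.908), Hsd17b11 (0.879) and the phosphatase gene Cdc14a (0.868). The mean of Pkd2 was 7.80 units in E11, 5.25 in E13, 10.5 in E18 and 15.8 in P70 libraries. For Sox21 they were Rgma (0.784), the growth factor receptor gene Fgfr1 (0.781) and Zfp14 (0.779). Between members, r was 0.893 for Sox11 and Sox12, 0.675 for Sox4 and Sox11, and -0.609 for Sox2 and Sox11.

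A list of 30 neuronal genes linked to SoxC factors was followed over the same steps. Of 29 tested from E11 to E13, 13 rose and 0 fell, beside 9.44% and 11.5% of all genes, while Sox11 and Sox4 did not pass. The neuronal tubulin Tubb3 went from 361 ± 156 (SD, n = 4) to 996 ± 333 units (n = 5), a log2 difference of 1.501 (SE 0.27, limma adjusted p = 0.000486), and the RNA-binding protein genes Elavl2 and Elavl4 rose by 1.69 and 1.37. From E13 to E18, 1 of 24 rose and 13 fell, beside 22.4% and 25% of all genes, among them Cdkn1c, a cell cycle inhibitor (log2 difference -4.76), Btg2, an antiproliferative gene of neurogenic progenitors (-3.35), and the transcription factor Neurod1 (-4.07). From E18 to P70, 0 of 21 rose and 17 fell, beside 16.9% and 24% of all genes. Among those that fell were the axon growth genes Dpysl3 (log2 difference -5.01) and Crmp1 (-3.81), and Tubb3 fell by 2.94. The median log2 differences were 0.88, -1.26 and -1.78, beside -0.04, -0.04 and -0.14 over all genes.

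The 16 markers of mature neurons summed to 345 to 459 units in E11 and 787 to 1918 in E13 libraries, and to 1029 to 2173 (E18) and 905 to 1293 (P70) later. By limma, 5 of 12 tested were higher and 0 lower from E11 to E13, 5 of 14 higher and 1 lower from E13 to E18, and 1 of 15 higher and 5 lower from E18 to P70. Of all genes, 9.44%, 22.4% and 16.9% were higher and 11.5%, 25% and 24% lower at these steps. The part of the mature neuron markers in the changes of Sox11 and of the neuronal genes was not tested. The sum of 20 cell cycle genes lay between 3664 and 4113 units at E11 and between 738 and 1826 at E13. It lay between 141 and 179 units at E18 and between 79.5 and 113 in the adult. Of these, 19 of 20 fell from E11 to E13 and 18 of 18 from E13 to E18 by limma, beside 11.5% and 25% of all genes.

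Known SoxB partners and progenitor genes, also a list of 30, had members in both directions. From E11 to E13, 3 of 23 rose and 4 fell, near the 9.44% and 11.5% of all genes: Fabp7, which radial glia express, rose by 4.53, and the cyclin genes Ccnd2 and Ccnd1 were lower, with log2 differences of -2.44 and -2.09. From E13 to E18, 4 of 24 rose and 10 fell, beside 22.4% and 25% of all genes, with Hes5, a Notch target, lower by a log2 difference of -3.75 and Prom1, a membrane protein of progenitors and ependymal cells, higher by 1.96. From E18 to P70, 1 of 22 rose (Ccnd2, by 0.77) and 6 fell, where 16.9% and 24% of all genes did, among them Prom1 (-4.51), Fabp7 (-3.61) and the POU factor gene Pou3f3 (-0.66).

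**Figure D4:**
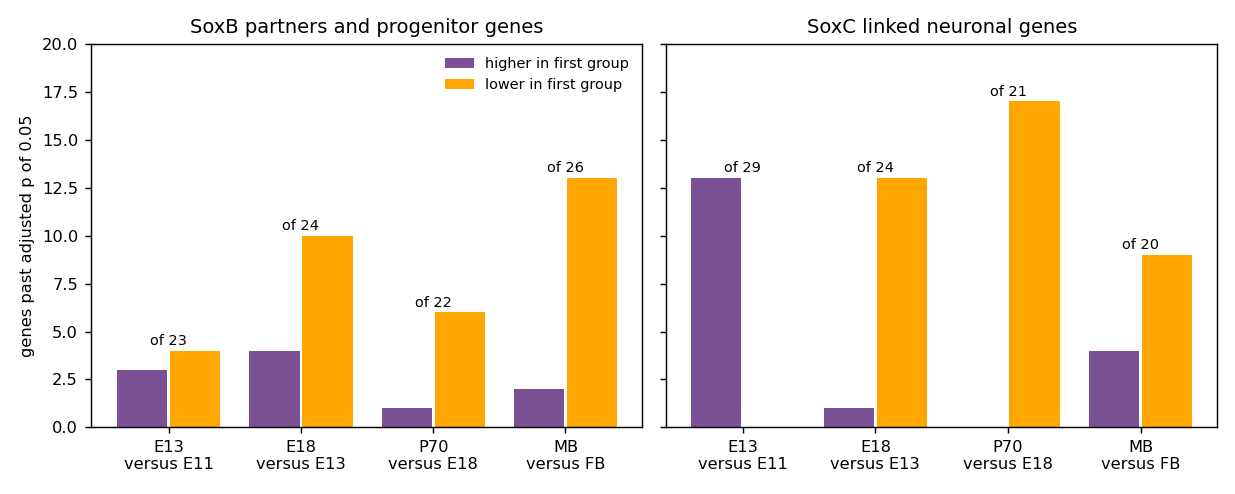
Number of genes (y axis) past an adjusted p of 0.05 that were higher (purple) or lower (orange) in the first group of each comparison, in the list of SoxB partners and progenitor genes (left) and of SoxC linked neuronal genes (right), with the number tested above. In the right panel 13 of 29 were higher at E13 than at E11, and 17 of 21 were lower at P70 than at E18.

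Among the 13 other Sox genes, Sox9, the SoxE gene of glial fate, was at 56.5 ± 15.7 (E11, SD, n = 4), 106 ± 37.9 (E13, n = 5), 156 ± 62.7 (E18, n = 5) and 416 ± 112 units (P70, n = 6). It rose by 0.85 (SE 0.29, limma adjusted p = 0.0385) at the first step and by 1.44 (SE 0.26, limma adjusted p = 0.000146) at the last. Sox8 rose by 1.25 from E13 to E18 and fell by 1.27 from E18 to P70. No other gene of this list passed between neighbouring ages.

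In the spheres, Sox11 was lower in MB than in FB libraries. Values here are CPM, counts scaled to the total of each library. Sox11 was at 119, 102, 123, 109 and 134 CPM in the MB libraries and at 192, 229, 236, 238 and 230 CPM in the FB libraries, with no overlap. The means were 117 ± 12.3 (SD, n = 5) and 225 ± 18.9 CPM (n = 5), and by edgeR's quasi-likelihood test the log2 difference was -0.96 (SE 0.08, adjusted p = 2.53e-08). It was the only one of the 7 members to pass, and 29.6% of all genes passed in either direction and 14.3% were lower.

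**Figure D5:**
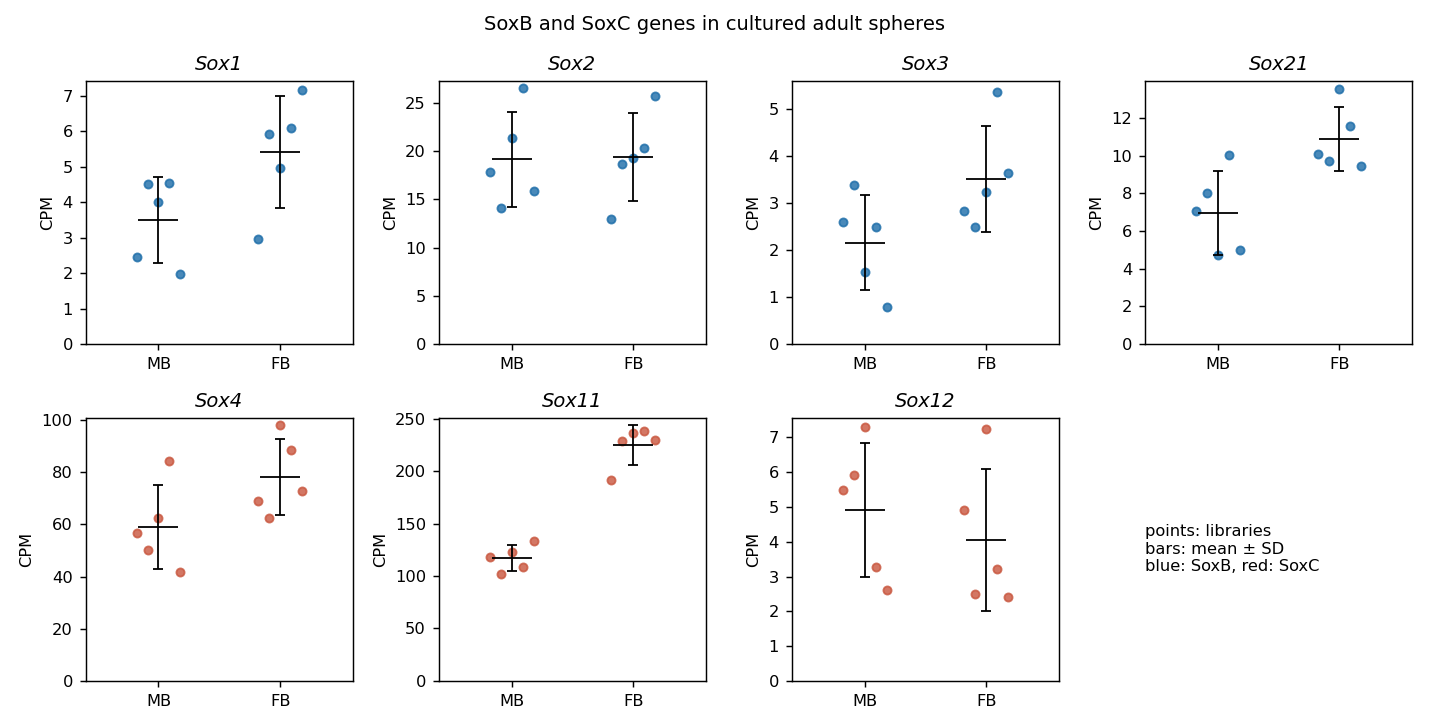
CPM of each SoxB (blue) and SoxC (red) gene in every MB and FB sphere library, with the mean and SD as black bars and an axis of its own for each gene. The MB and FB libraries are apart for Sox11, with means of 117 and 225 CPM, and overlap for the other members.

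Sox4 was at 56.5, 50.0, 62.3, 84.3 and 41.6 CPM in MB and at 68.8, 62.5, 98.0, 88.5 and 72.7 CPM in FB. The groups overlapped, and the log2 difference of -0.43 (SE 0.16, edgeR adjusted p = 0.0520) did not pass. Without MB replicate 4, the highest of its group, it was -0.59 (adjusted p = 0.00428). Sox12 was at 4.92 ± 1.93 CPM in MB (SD, n = 5) and 4.06 ± 2.04 in FB (n = 5), with a log2 difference of 0.26 (SE 0.41, edgeR adjusted p = 0.686).

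Sox2 was at 17.9, 14.1, 21.3, 26.6 and 15.8 CPM in MB and at 12.9, 18.7, 19.2, 20.3 and 25.7 CPM in FB. The groups overlapped, with a log2 difference of -0.04 (SE 0.21, edgeR adjusted p = 0.923). Sox21 was at 6.96 ± 2.20 CPM in MB and 10.9 ± 1.69 in FB (SD, n = 5 each), a log2 difference of -0.67 (SE 0.27, edgeR adjusted p = 0.0692). It passed in 2 of 14 alternatives, without MB replicate 4 (edgeR adjusted p = 0.0305) and by DESeq2 (adjusted p = 0.0467). Sox1 and Sox3 were both detected, at 3.49 ± 1.20 and 2.16 ± 1.01 CPM in MB and 5.42 ± 1.57 and 3.51 ± 1.12 in FB, and did not pass (edgeR adjusted p = 0.216 and 0.265).

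Per kilobase of the longest annotated transcript, Sox11 was at 14.1 ± 1.48 CPM per kb in MB and 27.1 ± 2.27 in FB (SD, n = 5 each). Sox4 followed at 12.3 ± 3.36 and 16.3 ± 3.07 CPM per kb, and Sox2 at 9.31 ± 2.41 and 9.41 ± 2.21. The order of Sox11 and Sox4 is not firm: their SDs overlapped in MB spheres, and it depends on the lengths used, since the length behind the captured values relative to Sox2 was 1.2 for Sox4, against 2.33 in GENCODE.

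The median log2 difference of the 7 members was -0.65, beside -0.02 over all 12886 genes tested. In all, 15.3% of genes were higher and 14.3% lower in MB. Of 20 SoxC linked neuronal genes tested, 4 were higher and 9 lower, including Crmp1 (log2 difference -1.92) and Btg2 (-1.34), while Map2, a microtubule-associated protein of dendrites, was higher by 0.38. Of 26 SoxB partners and progenitor genes, 2 were higher and 13 lower, including Hes5 (-2.20), Cdkn1a (-0.85), Vim (-0.84) and Fabp7 (-0.76). Cell cycle genes moved with them: 14 of 20 were lower in MB and 0 higher, and the 20 summed to 3464 to 3718 CPM in MB and 4311 to 4750 in FB. The 16 mature neuron markers summed to 116 to 138 CPM in MB and 161 to 187 in FB. The part of either in the difference of Sox11 was not tested. Sox9 was lower in MB as well, at 194 ± 19.2 against 292 ± 15.3 CPM (SD, n = 5 each; log2 difference -0.60, SE 0.07, edgeR adjusted p = 1.52e-06).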

How the data were processed

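RNA was turned into cDNA by Smart-seq2 and tagged with Tn5, per the labels' protocols, with no molecular identifiers and no strand, so counting error covers reads and not molecules. Per the submitters' processing notes, which give no roles, mm10 and GRCm39 were the builds and STAR 2.3, Salmon 1.6.0 and DESeq2 1.34.0 among the tools. For captured cells the authors deposited normalized values in a unit not given in the sources used here, while for spheres the authors deposited whole-number counts.

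From the captured values, whole reads were recovered for 11851 of 14997 genes (79%, within 0.01 reads). Lines with repeated symbols (142 of 15139) were left out. Captured values were tested with limma 3.58.1 (R 4.3.3, trend) on log2(value + 1), with all 20 libraries in 1 fit, and sphere counts with edgeR 4.0.16 (quasi-likelihood, TMM, default filter). Within a comparison the p-values of all tested genes were adjusted together (Benjamini-Hochberg), and 0.05 was the threshold. The steps were tested on simulated data. All 7 members are named, with the 3 genes most like each of the 5 with values at all 4 ages (mean of at least 5 units) and up to 4 genes per list and comparison with the smallest p. The members and lists were chosen with earlier results of these data known.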

Additional observations from a re-analysis of the deposited data

Results flagged for a closer look

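In 3 groups 1 library stood apart from the others by Dixon's criterion, which flags about 1 in 20 groups by chance, and 39 groups were tested. Sox4 was at 26.8 units in E11 replicate 4, and the nearest other E11 library was at 11.0 units. Sox12 was at 8.88 units in P70 replicate 3, and the nearest was at 4.88 units. In the FB spheres, Sox11 was at 192 CPM in replicate 1, and the nearest was at 229 CPM, still above every MB library.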

How the results depend on the processing

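Over the 30 tests of single members, 488 alternatives were computed: 449 gave the same call, 27 passed where the reported test did not, 12 lost the call and 0 changed direction with a call. The calls of Sox11, of Sox12, of Sox3 and Sox4 from E13 to E18 and of Sox1 held in every alternative run for them. The count of all genes changed from E11 to E13 was 2421, and 3811 with a fit on those 2 ages only and 4873 with a weight per library. By edgeR on recovered reads, added after seeing the data, 2861 genes changed from E18 to P70 instead of 5042, and 4774 from E11 to P70 instead of 7213. That run used only genes with recovered reads and only the libraries of the 2 ages compared. Its counts therefore differ from the reported ones in genes and libraries as well as in method. Limma fitted on the 2 ages only gave 4038 and 6671 genes. Rescaling libraries by their median ratio (mean log2 factors from 0.14 at E11 to -0.13 at P70) moved the share of calls that were higher at P70 from 41.3% to 54.6% against E18 and from 37.96% to 48.01% against E11. Under it the Sox4 fall from E11 to P70 lost its call (adjusted p = 0.0554, limma), and by edgeR on recovered reads it was 0.145. Under the same rescaling the rises from E11 to P70 were 0.94 for Sox2 (limma adjusted p = 0.00409) and 0.93 for Sox21 (limma adjusted p = 0.00731). Deviations from the group means were only weakly correlated between same-numbered libraries of 2 groups (from -0.148 to 0.25). Such correlations cannot show whether these libraries share an origin, and the labels state no pairing. With a replicate block, 2655 genes changed from E11 to E13, and Sox2 from E18 to P70 (adjusted p = 0.0420), Sox21 from E11 to P70 (0.0169) and Sox4 between spheres (0.0110) passed. Few reads stood behind Sox3 at E18 (0 to 11 per library) and Sox4 in P70 replicate 6 (6 reads), which limits their precision.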
